A study of Canis lupus familiaris with 36 samples.

Results

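HMOX1 (ENSCAFG00000001711) encodes heme oxygenase 1, and its level was followed in CLBL-1, a line from a canine B-cell lymphoma, across all treatments and incubation times of an RNA-seq series. It is 1 gene of the 30424 in the count table, and it was chosen by its counts at 48 h, which were far higher with Ibr + AS than with DMSO. HMOX1 values that rest on the DMSO 48 h or Ibr + AS 48 h libraries are therefore given as a description without a test. In the RefSeq annotation of the dog (assembly UU_Cfam_GSD_1.0), HMOX1 lies between MCM5, a subunit of the replicative helicase, and TOM1, an endosomal sorting adaptor. The counts were made on another assembly, CanFam3.1.

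Heme oxygenase 1 is the inducible enzyme that opens the heme ring and releases biliverdin, carbon monoxide and iron. Its gene is held down by the heme-binding repressor BACH1 and is turned on by NRF2, the main transcription factor of the response to oxidants and electrophiles, and further by heme itself, heavy metals and inflammatory signals. In mammals the protein is best known from macrophages of the spleen and liver that take up old red cells, but most cell types can induce it under stress.

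CLBL-1 is 1 established line, and the replicates are cultures at passage numbers p121, p126 and p128. Cells were incubated for 24, 48 or 72 h with 1 µM ibrutinib (Ibr), an inhibitor of the B-cell receptor kinase BTK, with 5 µM AS-605240 (AS), an inhibitor of the gamma isoform of phosphoinositide 3-kinase, with both at these concentrations (Ibr + AS), or with the solvent DMSO as control. This gave 36 libraries in 12 groups of 3. P-values of the fit over 35 libraries measure the spread between passages of this single line. Fits of fewer libraries can take that spread largely from other genes. The total degrees of freedom for HMOX1 were 65872 in the fit of the 9 DMSO libraries, against 21.2 over 35 libraries. The Ibr 72 h library of passage p128 was left out of the tests and is included in the levels. Between 9941919 and 14703839 reads per library fell on genes, and HMOX1 had between 32 and 826 of them. Levels are given in CPM, the reads of a gene scaled to library size with TMM factors. Because the RNA is from bulk cultures, a larger share of cells with the transcript and more transcript per cell cannot be told apart.

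In DMSO, HMOX1 was present at a low level in every library. At 24 h it was at 3.25, 3.67 and 4.05 CPM in passages p121, p126 and p128, at 48 h at 3.88, 5.12 and 4.24 CPM, and at 72 h at 2.79, 2.99 and 3.82 CPM. The 24 h libraries overlapped in range with those of 48 h and of 72 h, whereas all 48 h libraries lay above all 72 h libraries. The group means were 3.65 ± 0.402, 4.42 ± 0.637 and 3.20 ± 0.546 CPM (SD, n = 3). Between 72 h and 24 h the log2 FC was -0.22 (SE 0.19, edgeR adjusted p = 0.417), in a comparison of the DMSO libraries in which 4.83% of the tested genes rose and 1.54% fell past the limits for a DEG. A DEG here is a gene past 2 limits, an adjusted p (Benjamini-Hochberg) no higher than 0.05 and a log2 FC beyond 1 in either direction.

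With Ibr + AS, HMOX1 was higher than with any other treatment at every incubation time. At 24 h it reached 63.3, 26.8 and 24.9 CPM in passages p121, p126 and p128. At 48 h the values were 74.2, 52.1 and 48.6 CPM. At 72 h they were 25.8, 38.2 and 62.1 CPM. The lowest of these 9 libraries (24.9 CPM) lay above the highest of the 27 others (10.5 CPM, an Ibr library), so that the ranges did not overlap. In reads, the 9 libraries held 310 to 826 reads of HMOX1.

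**Figure D1:**
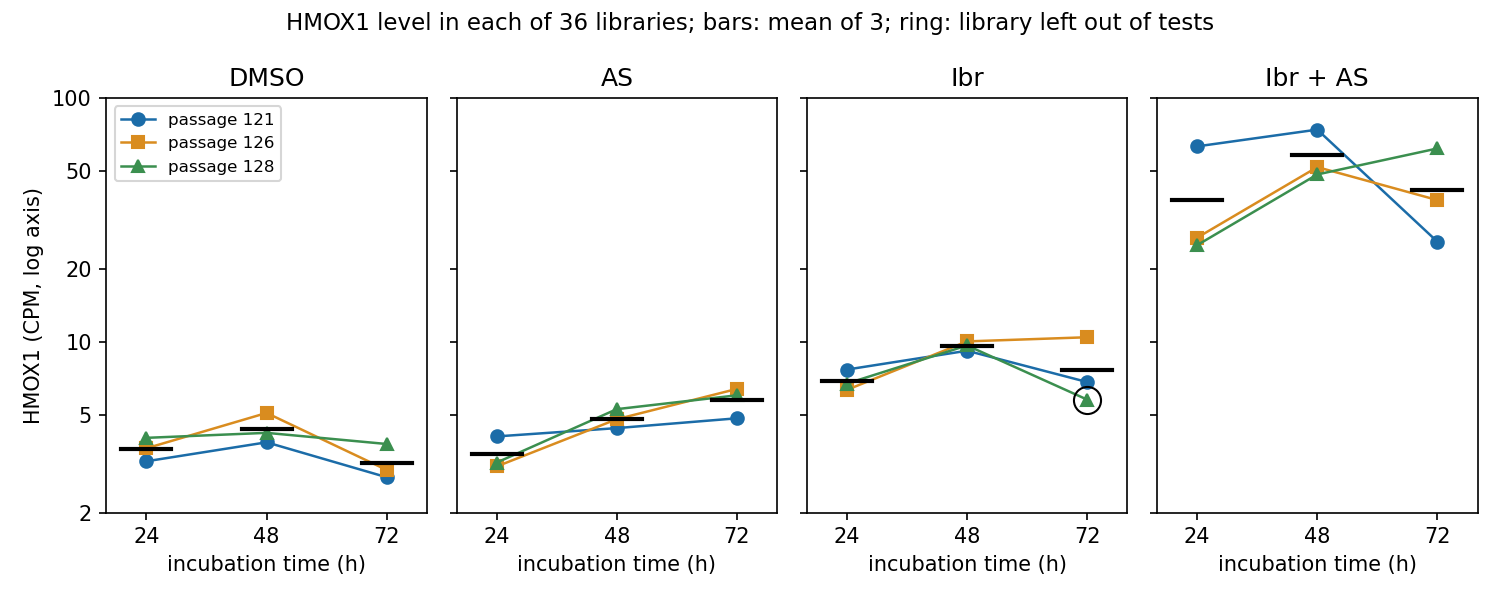
HMOX1 in CPM (log axis) against incubation time in hours, 1 panel per treatment, with 1 line per passage, black bars for the mean of the 3 libraries and a ring around the library left out of the tests. The 9 Ibr + AS libraries lie between 24.9 and 74.2 CPM and the 27 others between 2.79 and 10.5 CPM.

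Against DMSO of the same incubation time, the increase with Ibr + AS passed the test at both times at which it was tested. At 24 h HMOX1 was 10.2-fold higher (log2 FC 3.36, SE 0.36, edgeR adjusted p = 7.93e-08), and 6.16% of the 18670 genes tested were called higher. At 72 h it was 13.2-fold higher (log2 FC 3.72, SE 0.37, edgeR adjusted p = 3.18e-08), beside 3.23% of the genes. At 48 h, the comparison that led to its choice, the log2 FC was 3.71 (SE 0.35), and 4.86% of the genes were called higher there. Among 10780 genes whose mean was 1 CPM or more, HMOX1 ranked 40th by log2 FC at 24 h, 19th at 48 h and 12th at 72 h.

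The combination also exceeded each inhibitor alone. Against Ibr the log2 FC was 2.44 at 24 h (SE 0.34, edgeR adjusted p = 9.83e-06) and 2.29 at 72 h (SE 0.39, edgeR adjusted p = 0.000358), where 2.23% and 0.803% of genes were called higher. Against AS it was 3.44 at 24 h (SE 0.37, edgeR adjusted p = 1.65e-07) and 2.84 at 72 h (SE 0.34, edgeR adjusted p = 1.77e-06), where 3.66% and 1.40% of genes were called higher. The 48 h differences were 2.58 against Ibr and 3.56 against AS on the log2 scale. These comparisons share the Ibr + AS libraries with those against DMSO.

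With the single inhibitors HMOX1 lay far below its level with the combination. With Ibr it was at 7.71, 6.37 and 6.76 CPM at 24 h, at 9.21, 10.1 and 9.68 CPM at 48 h, and at 6.85, 10.5 and 5.81 CPM at 72 h, the last value being that of the left-out library. All 9 Ibr libraries (5.81 to 10.5 CPM) were above all 9 DMSO libraries (2.79 to 5.12 CPM), and Ibr was higher in 9 of 9 pairs of the same passage and time. The pairs at 48 h use DMSO libraries that took part in the choice of the gene, which favours low values there. A pair at 72 h holds the left-out library. At 24 h the log2 FC of 0.91 (SE 0.42) did not pass the test (edgeR adjusted p = 0.226), where 0.873% of genes were called higher. Under the 12 alternatives this log2 FC lay between 0.76 and 0.99, under the limit of 1. The adjusted p was 0.0438 with DESeq2 and 0.572 with edgeR without passage p126. At 72 h, in the 2 passages that were tested, it was 1.43 (SE 0.47, edgeR adjusted p = 0.0362), where 1.30% of genes were called higher. Without passage p126, which leaves 1 Ibr library at 72 h that is taken to vary like the other groups, it was 1.06 and did not pass (edgeR adjusted p = 0.586). The mean of the 24 h and 72 h effects, a contrast added after the values had been seen, was 1.17 on the log2 scale (SE 0.31, 95% interval 0.52 to 1.83, edgeR adjusted p = 0.0134), with 0.830% of genes called higher. That mean was 1.02 without passage p126 (edgeR adjusted p = 0.356). The 48 h value was 1.14, where 0.889% of genes were called higher.

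With AS, HMOX1 stayed within or near the range of DMSO. It was at 4.10, 3.09 and 3.21 CPM at 24 h, at 4.44, 4.83 and 5.31 CPM at 48 h, and at 4.87, 6.43 and 6.05 CPM at 72 h. AS was above DMSO of the same passage in 1 of 3 passages at 24 h, 2 of 3 at 48 h and 3 of 3 at 72 h, and the ranges parted at 72 h alone, where 0.712% of genes were called higher. The log2 FC was -0.08 at 24 h (SE 0.47, edgeR adjusted p = 1) and 0.89 at 72 h (SE 0.45, edgeR adjusted p = 0.245), with 0.145% of genes called higher at 24 h. Neither passed the test, and the 95% interval at 72 h ran from -0.04 to 1.81. With only the DMSO and AS libraries of 72 h fitted, the log2 FC was 0.85 (SE 0.20, edgeR adjusted p = 0.000517), which lay under the log2 FC limit of 1. Such a small fit can take its spread largely from other genes, and how far this one did was not tested. The difference between the 72 h and 24 h effects of AS was 0.97 on the log2 scale (SE 0.65, edgeR adjusted p = 0.479), beside 0.439% of genes, and 1.16 without passage p121 (edgeR adjusted p = 0.00619). Fits that leave out a passage can also take their spread largely from other genes.

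Between the inhibitors, Ibr was above AS in 8 of 9 pairs of the same passage and time. The exception was the left-out library at 72 h. The log2 differences were 1.00 at 24 h, 0.99 at 48 h and 0.55 at 72 h (edgeR adjusted p = 0.637, 0.34 and 0.789), and none passed the test, with 0.155%, 0.182% and 0.145% of genes called higher with Ibr. Their mean over the 3 incubation times, also added after the values had been seen, was 0.84 (SE 0.24, 95% interval 0.34 to 1.35, edgeR adjusted p = 0.0374), beside 0.252% of genes called higher, and lay under the log2 FC limit of 1. The fit estimates 1 spread per gene over all groups, Ibr + AS included. With only the Ibr and AS libraries fitted, the 24 h difference of 1.00 had an SE of 0.17 and passed (edgeR adjusted p = 3.58e-07). Such a small fit can take its spread largely from other genes, so that its p may not measure the spread of HMOX1 between passages. The 24 h difference was 1.06 and passed without passage p121, and the 48 h difference was 1.07 and passed without passage p128 (edgeR adjusted p = 4e-04 and 0.000212). Their SE were 0.22 and 0.21, against 0.43 and 0.39 over 35 libraries, and the same limit may hold for these p-values. The inhibitors were given at different concentrations.

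Ordered by mean level, the groups ran from DMSO 72 h (3.20 CPM) over AS 24 h (3.47 CPM), DMSO 24 h, DMSO 48 h, AS 48 h (4.86 CPM), AS 72 h (5.78 CPM), Ibr 24 h (6.94 CPM), Ibr 72 h (7.71 CPM) and Ibr 48 h (9.65 CPM) to Ibr + AS 24 h (38.3 CPM), Ibr + AS 72 h (42.0 CPM) and Ibr + AS 48 h (58.3 CPM). The libraries of neighbouring groups overlapped in range at every step but that from Ibr 48 h to Ibr + AS 24 h.

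The design allows the combined change to be set against the sum of the single changes. In passages p121, p126 and p128 at 24 h, the changes of Ibr and AS against DMSO summed to 1.56, 0.54 and 0.40 on the log2 scale, whereas Ibr + AS gave 4.25, 2.84 and 2.60. At 48 h the sums were 1.42, 0.88 and 1.49 beside 4.23, 3.33 and 3.49. At 72 h they were 2.06, 2.86 and 1.25 beside 3.17, 3.64 and 3.99, the third sum holding the left-out library. The combined change was the larger in all 9 cases, and the gap was narrowest in passages p121 and p126 at 72 h. The cases at 48 h rest on the libraries behind the choice of the gene, which favours a large combined change there.

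**Figure D2:**
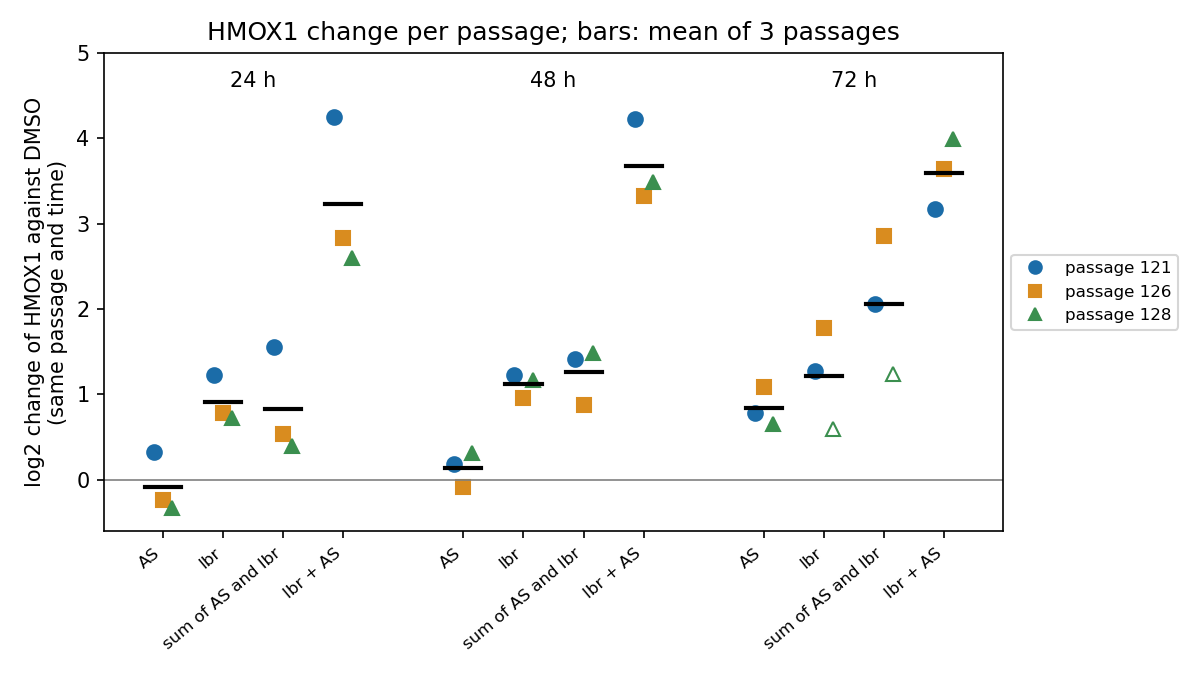
Log2 change of HMOX1 against DMSO of the same passage and time for AS, Ibr, the sum of both and Ibr + AS, at 24, 48 and 72 h, with 1 symbol per passage, open where the left-out library enters, and bars for the mean of 3 passages. The Ibr + AS points lie between 2.60 and 4.25, and the sums between 0.40 and 2.86.

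The departure from additivity was 2.53 on the log2 scale at 24 h (SE 0.58, edgeR adjusted p = 0.0125), where 0.584% of genes departed upwards, and HMOX1 ranked 8th of 10780 genes. Without passage p126 it was 2.59 and did not pass (edgeR adjusted p = 0.223). At 72 h it was 1.40 (SE 0.60) and did not pass (edgeR adjusted p = 0.185), where 1.48% of genes departed upwards. It was 1.41 and passed with DESeq2 (adjusted p = 0.039). With only the 4 groups fitted, where the spread can come largely from other genes, it was 1.15 and passed (edgeR adjusted p = 0.00036). Without passage p121 it was 1.34. It was 0.90 without passage p128 (edgeR adjusted p = 0.078) and 0.92 without only the 72 h libraries of that passage (edgeR adjusted p = 0.588), and did not pass in either case. The 48 h value was 2.42. The departures at 24 h and 72 h were not tested against each other.

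With Ibr + AS, the passages moved in opposite directions over time. From 24 h to 72 h, HMOX1 fell by 1.30 on the log2 scale in passage p121 and rose by 0.51 in passage p126 and by 1.31 in passage p128. Passage p121 was thus the highest at 24 h and 48 h and the lowest at 72 h, whereas passage p128 was the lowest at 24 h and 48 h and the highest at 72 h. The fitted change over time was 0.15 (SE 0.29, edgeR adjusted p = 0.889), beside 0.193% of genes called higher and 1.32% lower. It was 0.94 without passage p121 (SE 0.13, edgeR adjusted p = 2.92e-10) and -0.49 without passage p128 (SE 0.16, edgeR adjusted p = 0.0309). Without passage p126 it was 0.0011 (SE 0.44). Fits without a passage can take their spread largely from other genes, so that these p-values may not measure the spread between passages. The SD between passages was 56.5%, 23.8% and 44.0% of the mean in the Ibr + AS groups at 24, 48 and 72 h, and between 4.40% and 31.7% in the 9 groups of the other treatments. Averaged over the 12 groups, the passages deviated by -0.0028 to 0.0018 on the log2 scale from their common mean. The first sequencing run inferred from the table's header holds all libraries of passage p121 and the second all of passage p128, so that run and these passages cannot be told apart. Passage p126 is split, with 6 libraries in each inferred run. Its change from 24 h to 72 h crosses the runs, as do its 48 h values of AS and Ibr + AS against DMSO.

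The difference between the 72 h and 24 h effects was 0.37 on the log2 scale for Ibr + AS (SE 0.55, edgeR adjusted p = 0.782) and 0.52 for Ibr (SE 0.64, edgeR adjusted p = 0.752). Neither passed the test. For Ibr + AS it was 1.11 and passed without passage p121 (edgeR adjusted p = 0.000365), and was -0.18 without passage p128 (edgeR adjusted p = 0.835). The p-values without a passage have the same limit as those of the change over time. The share of genes that rose more at 72 h was 2.14% for Ibr + AS and 1.09% for Ibr.

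Few other genes of heme and iron handling could be followed. Of 48 genes listed, 7 could be paired with a symbol, HMOX1 included, and of the other 6, 0 were called higher with Ibr + AS at any time, while 0, 1 and 2 were called lower at 24, 48 and 72 h (median log2 FC -0.35, -0.50 and -0.50, beside -0.03, -0.03 and 0.01 over all genes of 1 CPM or more). Of all genes, 6.16%, 4.86% and 3.23% were called higher and 2.09%, 2.82% and 4.30% lower at these times, so that a count of 0 higher among 6 genes does not set the list apart from the rest. FECH (ferrochelatase), the enzyme that inserts iron into protoporphyrin to form heme, had log2 FC of -0.45, -0.56 and -0.44. ACO1 and IREB2, the iron regulatory proteins that bind iron response elements in mRNA, gave -0.56, -0.67 and -0.56, and -0.26, -0.25 and -0.10. FECH and ACO1 passed the adjusted p limit at each time, and IREB2 at 24 h and 48 h. None of these values was past the log2 FC limit. TSPO, a protein of the outer mitochondrial membrane that binds porphyrins, was lower at 72 h (log2 FC -1.04, edgeR adjusted p = 4.13e-11), and also with Ibr alone at 72 h (log2 FC -1.03), where 2.69% of genes were called lower. Without passage p126 the former was -0.79. Its level in DMSO was 21.1 CPM at 24 h and 40.2 CPM at 72 h, and with Ibr + AS 22.4 and 19.5 CPM. The second gene called lower was LRP1, an endocytic receptor that takes up heme bound to hemopexin, at 1 to 28 reads per library (log2 FC -1.94 at 48 h and -1.87 at 72 h, the latter -1.36 and not called without passage p121, edgeR adjusted p = 0.111).

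Among genes of the NRF2 and oxidative stress response, 10 of 80 listed could be paired, and 1 was called higher with Ibr + AS at 24 h and at 48 h and 0 at 72 h, with 0 called lower (median log2 FC -0.25, -0.13 and 0.08). With 6.16%, 4.86% and 3.23% of all genes called higher and 2.09%, 2.82% and 4.30% lower, these counts are near the background. That gene was SQSTM1 (p62), an autophagy receptor that binds the NRF2 inhibitor KEAP1. It was at 68.5 to 75.4 CPM in DMSO and 157 to 188 CPM in Ibr + AS at 24 h (log2 FC 1.18, SE 0.10, edgeR adjusted p = 1.66e-18), and at 96.8 to 112 CPM and 217 to 233 CPM at 48 h (log2 FC 1.10). At 72 h its log2 FC was 0.42. In DMSO SQSTM1 itself rose from 72.8 to 150 CPM between 24 h and 72 h (log2 FC 1.01), and with Ibr alone its log2 FC was 0.07, -0.41 and -0.77 at the 3 times. The log2 FC of HMOX1 over the same interval in DMSO was -0.22.

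TXNRD1, the cytosolic thioredoxin reductase, had log2 FC of -0.54, 0.19 and 0.71 at 24, 48 and 72 h with Ibr + AS. Those at 24 h and 72 h passed the adjusted p limit, and none was past the log2 FC limit. TXNRD1 went from 380 to 231 CPM in DMSO between 24 h and 72 h and from 265 to 376 CPM with Ibr + AS. The mitochondrial superoxide dismutase SOD2 gave -0.81, -0.79 and -0.22, the first and second past the adjusted p limit but not the log2 FC limit. The remaining listed genes with at least 1 CPM (TXN2, OXR1, AKR1B1, MAP3K5, TXNL1 and CYB5R3) lay between -0.74 and 0.25.

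**Figure D3:**
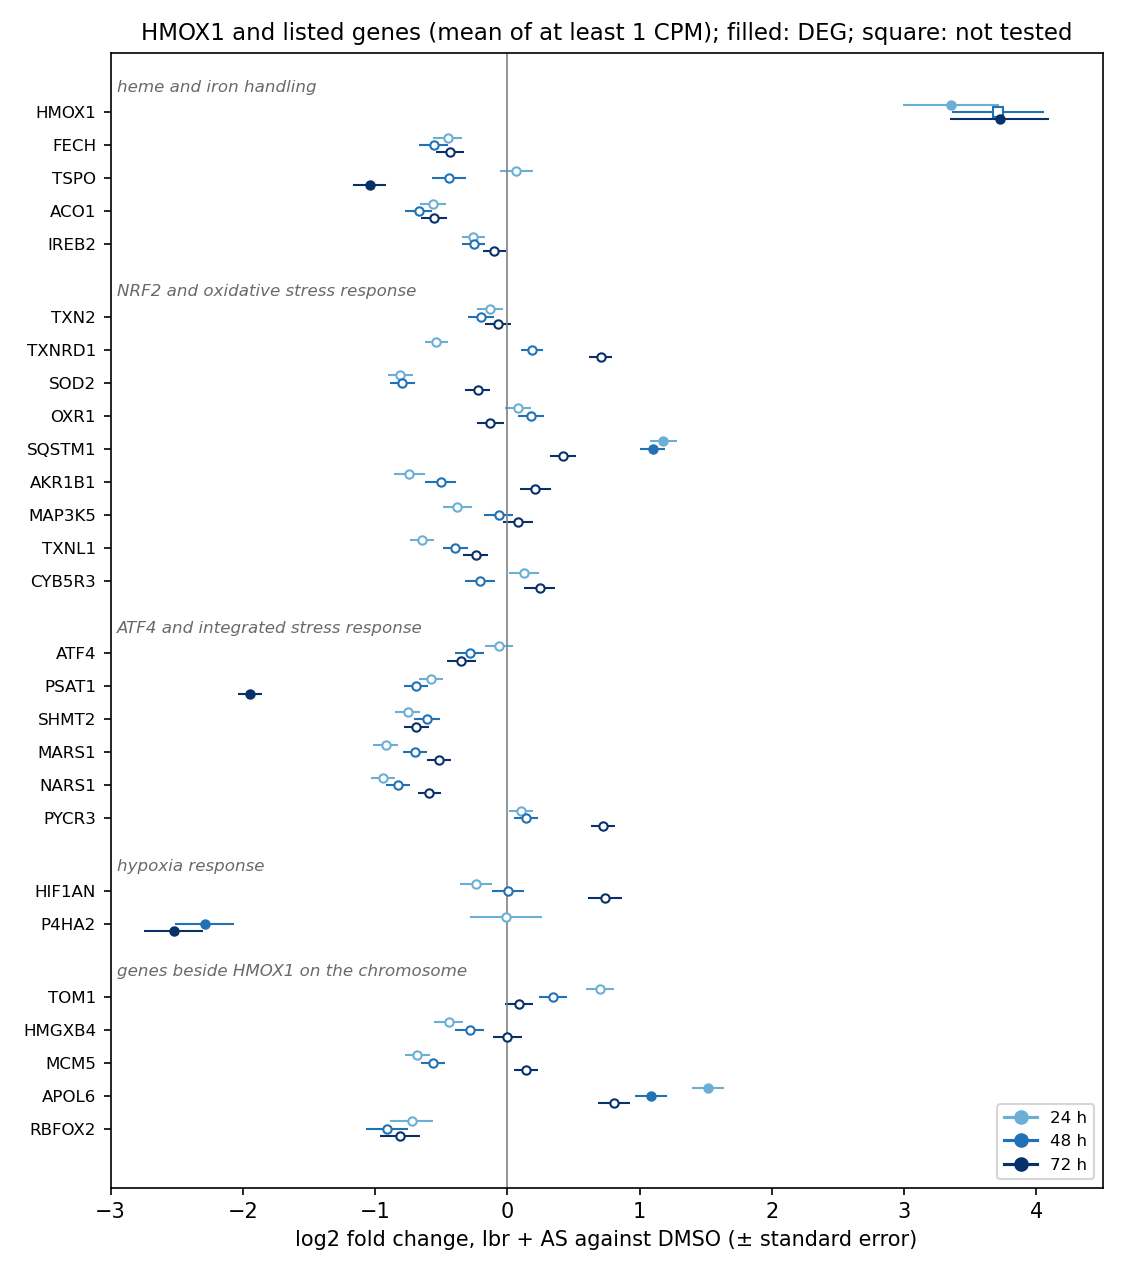
Log2 fold change of Ibr + AS against DMSO (x axis, bars are standard errors) for HMOX1 and the genes of 1 CPM or more in the heme and iron, NRF2, ATF4, hypoxia and neighbour lists, at 24, 48 and 72 h, filled where the gene is a DEG and as a square where no test was made. HMOX1 lies at 3.36, 3.71 and 3.72, and the highest of the other plotted genes is APOL6 at 1.51.

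The integrated stress response runs over the transcription factor ATF4, which can also act on HMOX1. ATF4 had log2 FC of -0.06, -0.29 and -0.35 with Ibr + AS. The list held 6 paired genes of 41 listed, ATF4 included. Their median log2 FC was -0.67, -0.65 and -0.55, beside -0.03, -0.03 and 0.01 over all genes of 1 CPM or more. SHMT2, MARS1 and NARS1 lay between -0.94 and -0.52, past the adjusted p limit at each time. PYCR3 gave 0.10, 0.14 and 0.72, past it at 72 h alone. None of these values was past the log2 FC limit. Of the 6 genes, 0 were called higher at any time, and 1 was called lower at 72 h, where 4.30% of all genes were. This was PSAT1, an enzyme of serine synthesis, which rose in DMSO from 209 CPM at 24 h to 646 CPM at 72 h and was lower with each treatment at 72 h (log2 FC -1.83 with Ibr, -1.95 with AS and -1.95 with Ibr + AS), with 1.48% of genes called lower for AS. The hypoxia list had 4 of 45 genes paired, of which 0 were called higher with Ibr + AS at any time and 0, 1 and 1 lower at 24, 48 and 72 h, beside 6.16%, 4.86% and 3.23% of all genes higher and 2.09%, 2.82% and 4.30% lower. The gene called lower was P4HA2, a collagen prolyl hydroxylase subunit (log2 FC -2.29 and -2.52). P4HA2 was also called lower at 48 h with Ibr (log2 FC -1.80) and with AS (log2 FC -1.17), where 1.11% and 0.509% of genes were called lower, and its log2 FC at 72 h was -0.19 with Ibr and 0.26 with AS. In DMSO it went from 2.10 CPM at 24 h to 11.4 CPM at 72 h. HIF1AN, the hydroxylase that restrains HIF-1, gave -0.24, 0.0033 and 0.74.

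Of the genes near HMOX1 on the chromosome, APOL6 alone among those paired was called higher with Ibr + AS. MCM5 had log2 FC of -0.68, -0.56 and 0.14 at 24, 48 and 72 h, and TOM1 of 0.70, 0.34 and 0.09. HMGXB4, a chromatin protein, gave -0.44, -0.29 and -0.00, and the splicing regulator RBFOX2 gave -0.72, -0.91 and -0.81. APOL6, of the apolipoprotein L family, was called higher at 24 h (log2 FC 1.51, SE 0.12, edgeR adjusted p = 2.62e-21) and 48 h (log2 FC 1.09), with 0.81 at 72 h. It was at 13.5 to 15.9 CPM in DMSO and 40.1 to 43.9 CPM in Ibr + AS at 24 h. Thus 1 of 5 paired neighbours was called higher at 24 h and at 48 h, beside 6.16% and 4.86% of all genes.

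HMOX1 is well known from macrophages, and markers of other cells were looked at beside it. Of the B-cell markers, 3 of 20 were paired. DLA-DRA and DLA-DQA1, chains of MHC class II, stood at means of 3292 and 757 CPM, and TNFRSF13C, the receptor for BAFF, at 150 CPM. TNFRSF13C was called higher with Ibr + AS at all 3 times (log2 FC 1.28, 1.27 and 1.34). DLA-DRA had log2 FC of 0.61, 0.28 and -0.76, past the adjusted p limit at each time. DLA-DQA1 had 0.34, 0.09 and -0.69, past it at 24 h and 72 h. None of these values was past the log2 FC limit. CD79A and MS4A1 were not paired and not analysed here. Of the macrophage and monocyte markers, 3 of 20 were paired. TREM2 had 0 reads in 32 of the 36 libraries and 1 read in the others. CSF2RB, a cytokine receptor chain, was at 97 to 216 reads and was not called. LYZ (lysozyme) was called higher with Ibr + AS at 24 h and 48 h (log2 FC 1.68 and 1.27), from 83.7 to 272 CPM at 24 h, and had a log2 FC of 0.68 at 72 h. The 3 markers summed to 76.3 to 124 CPM in DMSO, 104 to 175 CPM in Ibr, 93.5 to 110 CPM in AS and 147 to 325 CPM in Ibr + AS. Over all libraries the mean was 129 CPM for LYZ and 12.4 CPM for CSF2RB, so that LYZ makes up most of the sums. The part of these genes in the HMOX1 result was not tested. Of the 4 paired T-cell and NK-cell markers, none exceeded 7 reads in a library, and 1 (CD226) was called higher at 48 h, while the erythroid list had 0 of 16 genes paired. Beside the calls in these marker lists, 6.16%, 4.86% and 3.23% of all genes were called higher with Ibr + AS at 24, 48 and 72 h.

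The genes whose pattern was most like that of HMOX1 were sought by Pearson's r of log2 CPM over the 36 libraries, centred within passage, among 10779 genes. The r is a description, since the libraries share treatments and the Ibr + AS libraries stand apart. Of these genes, 131 had r above 0.9 and 102 below -0.9 (median -0.05), and 878 had a symbol. Among the highest of those were FGD2 (r = 0.95), an exchange factor for CDC42, GSDMD (0.95), the pore-forming gasdermin D of pyroptosis, IRF1 (0.92), an interferon-induced transcription factor, TRABD (0.92) and LGALS1 (0.92), which encodes galectin-1. Over all genes the highest values were those of ENSCAFG00000013102 (0.98) and ENSCAFG00000046009 (0.97), which have no symbol.

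The range of these genes was narrower than that of HMOX1. FGD2 was at a mean of 28.9 CPM with DMSO and of 107 CPM with Ibr + AS at 24 h, and GSDMD at 66.4 to 67.4 and 133 to 195 CPM. IRF1 had means of 35.7 and 109 CPM. In none of these 3 did the 2 groups overlap, which their choice by r over these same libraries favours. In each the fold between the groups was smaller than the 10.2-fold of HMOX1. Within the 27 libraries without Ibr + AS, r was 0.80 for FGD2, 0.76 for GSDMD, 0.75 for IRF1, 0.69 for TRABD and 0.71 for LGALS1. Within the 9 Ibr + AS libraries it ranged from 0.36 (IRF1) to 0.84 (GSDMD) for these 5 genes.

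**Figure D4:**
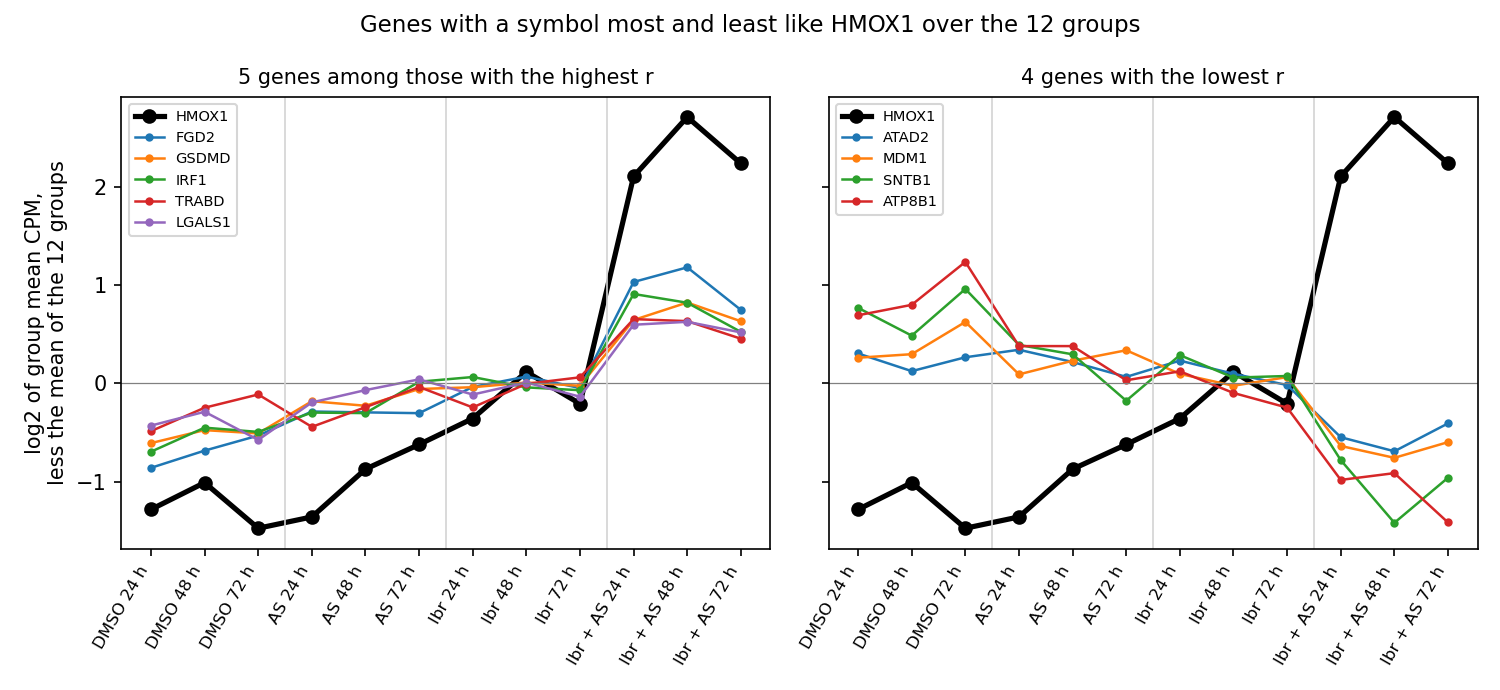
Log2 of the group mean CPM, less the mean over the 12 groups, for HMOX1 (black) and 5 genes with a symbol among those of highest r (left) and the 4 of lowest r (right). HMOX1 and the 5 genes have their 3 highest group means with Ibr + AS, and the 4 genes on the right their lowest, which the choice of genes by r favours.

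Among the genes with a symbol, those that ran most against HMOX1 were ATAD2 (r = -0.95), a chromatin ATPase with a bromodomain, MDM1 (-0.94), SNTB1 (-0.93), a syntrophin, and ATP8B1 (-0.91), a phospholipid flippase. ATAD2 was at 375 to 396 CPM with DMSO and 172 to 245 CPM with Ibr + AS at 24 h. In the 27 libraries without Ibr + AS, r was between -0.65 and -0.82 for these 4 genes.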

How the data were processed

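Poly-A RNA of 36 CLBL-1 cultures was sequenced by the authors as single-end reads, mapped to CanFam3.1 with STAR 2.7.5a (per the labels' processing notes) and deposited as 1 table of raw counts per Ensembl gene, without normalization. Which strand setting the counts use is not given in the sources used here. Groups follow the labels. For the third DMSO 24 h library the title names p126 but the passage tag p128, and p128 was used. The Ibr 72 h library of p128 was left out of tests, following the study. Total counts per library, from 9941919 to 14703839, set the precision, with 32 to 68 reads of HMOX1 in DMSO libraries.

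In R 4.3.3, edgeR 4.0.16 (with limma 3.58.1) fitted TMM-scaled counts of the 18670 genes with 2 or more reads by robust quasi-likelihood, with passage and group as terms, over 35 libraries (9 libraries and 16468 genes for DMSO over time). Adjusted p-values are Benjamini-Hochberg values over all genes tested. Departure from additivity is Ibr + AS minus Ibr minus AS plus DMSO on the log2 scale. A prior count of 1 entered log2 CPM. The scripts were tested on simulated data. Libraries of a group differed by more than read sampling gives (chi-square per degree of freedom 1.87 to 26.9 over 36 pairs), and 0 pairs were identical. Libraries of the same passage come from the same cells, and after removal of group means they correlated with a median r of 0.107, against -0.04 between passages.

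Alternatives were DESeq2 1.42.0, RLE factors, other filters, all 36 libraries, no passage term, only the groups of a comparison, each passage left out, the passage p128 libraries at 72 h left out and the sequencing run as a term, the run being inferred from sample-sheet numbers. Combined means over times, and the alternatives for 48 h values and list members, were added after the data had been seen.

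HMOX1, the gene lists and the rule for named genes (list members and genes of highest and lowest r of 1 CPM or more on average) were chosen with earlier results of these data known. LRP1, TREM2 and the T-cell markers lie under that level and are named to account for a count. Of the 6 genes of highest r, 1 is not reported here. Symbols came from the given parts of the study's supplementary tables, which name 1068 genes, some of them members of co-expression modules built on these libraries, so that the paired genes are not a random sample and most listed genes were not analysed here.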

Additional observations from a re-analysis of the deposited data

How the results depend on the processing

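Against DMSO, Ibr and AS at 24 h and 72 h, HMOX1 was called higher with Ibr + AS under all 12 alternatives, with log2 FC between 1.88 and 3.85. Without the replicate block, that is without passage as a term, no call changed: the log2 FC with Ibr + AS against DMSO was 3.37 at 24 h and 3.72 at 72 h, and the departure from additivity 2.54 and 1.42. Other results changed in call or sign when a passage was left out. At 24 h and 48 h, Ibr against AS stayed near the log2 FC limit of 1 in each of these fits. With each passage left out in turn, the log2 FC ranged from 1.06 to 1.65 for Ibr against DMSO at 72 h, from 1.02 to 1.28 for its mean over 24 h and 72 h, from -0.30 to 0.0049 for AS against DMSO at 24 h, from 0.97 to 1.06 and 0.95 to 1.07 for Ibr against AS at 24 h and 48 h, and from 2.27 to 2.69 and 0.90 to 1.93 for the departure from additivity at 24 h and 72 h. It ranged from -0.11 to 0.72 and -0.49 to 0.94 for Ibr and Ibr + AS at 72 h against 24 h, and from 0.77 to 1.16 and -0.18 to 1.11 for the difference between the effects of AS and of Ibr + AS at 72 h and 24 h. Leaving out the passage p128 libraries at 72 h turned the change of Ibr + AS over time to -0.29. Fits of only the groups compared called Ibr against AS at 24 h (1.00) and the departure at 72 h (1.15), and DESeq2 called the latter (1.41). The cause of these changes was not tested. Of the 6 genes of highest r, 2 were among the first 6 by Spearman's rho and 3 without the Ibr + AS libraries. HMOX1 had 32 to 68 reads in DMSO libraries. The SE of AS against DMSO was 0.43 to 0.47 on the log2 scale in the fit over all groups and 0.18 to 0.20 with only the groups compared. Both kinds of fit use the same reads but estimate the spread differently. The part of depth in the SE was not tested.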
